A study of Mus musculus with 15 samples.

Results

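Mature thymocytes of 2 sorted kinds were compared by RNA sequencing: CD4+CD8+ cells from donors that carried Thpok-RKF, and CD8 single-positive (SP) cells from donors that lacked it. These were 6 of the 15 libraries of the series, 3 in each group, chosen by their labels, and the comparison was described over the 16550 of 53762 genes that passed a filter on low counts. Donors of both groups carried floxed Thpok alleles, Runx3 fl/dYFP (a floxed Runx3 allele opposite a dYFP allele) and Cd4-Cre. Cd4-Cre deletes floxed sequence in thymocytes that have switched on the Cd4 promoter, so both groups share the targeted Thpok and Runx3 alleles and differ by label in Thpok-RKF and in the CD4 gate. The labels do not explain what Thpok-RKF is. Donor marrow was mixed with wild-type CD45.1+CD45.2+ marrow and given to irradiated CD45.1+ hosts that lack B2m, the light chain of MHC class I, and the sorted mutant cells were CD45.2+. Mice were on a C57BL/6 background, and their ages are not given. Both gates took cells with much T cell receptor (TCR) beta chain and little CD24, CD44 or CD69 on the surface. The Thpok-RKF- CD4+CD8+ group (3 libraries) shares the gate of the first group and the genotype of the second, and was used to split the difference into steps. WT CD4 SP cells from B2m-deficient hosts and WT CD8 SP cells from hosts lacking the MHC class II chain I-Ab (3 libraries each) gave a wild-type difference, in which lineage and host change together. The labels do not say whether each replicate was another animal. The p-values therefore measure how far these samples spread, and that spread may be technical.

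Thpok, encoded by Zbtb7b, is the transcription factor that directs MHC class II-selected thymocytes to the CD4 helper lineage, and it acts against the cytotoxic programme. Runx3 is its counterpart in the CD8 cytotoxic lineage, where it silences Cd4 and Zbtb7b. Thymocytes that lack Thpok and have a TCR restricted to MHC class II can take on CD8 SP features, and cells lacking both factors can keep both coreceptors.

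Gene totals of the 6 libraries lay between 43408417 and 48607260 counts. Replicate 1 of Thpok-RKF+ CD4+CD8+ stood apart from its group: it held 11.19% of counted reads outside genes, where replicates 2 and 3 held 5.28% and 5.65%. Its counts departed from those replicates by a chi-square per degree of freedom of 190.4 and 114.8, where those differed from each other by 34.76. The Thpok-RKF- CD8 SP libraries held 9.93%, 8.86% and 7.23% of reads outside genes. Without replicate 1 of Thpok-RKF+ CD4+CD8+, this share therefore separated the groups. The listed myeloid genes summed to 67.9, 2.61 and 3.74 CPM (counts scaled to library size with edgeR's TMM method) in the Thpok-RKF+ CD4+CD8+ libraries and to 3.52, 11.9 and 8.6 CPM in the Thpok-RKF- CD8 SP libraries, with 0 of 10 tested members past the edgeR test, at an unadjusted p below 0.05, by DESeq2 or by limma. The part of these values in the results below was not tested, and counts are also given without that library. In bulk RNA, fewer cells of a type and less RNA per cell cannot be told apart. The T cell markers Cd3e (804, 773 and 777 CPM in the Thpok-RKF+ CD4+CD8+ libraries, against 725, 825 and 792 CPM in the Thpok-RKF- CD8 SP libraries) and Trac (1073, 1760.5 and 1518 CPM in the Thpok-RKF+ CD4+CD8+ libraries, against 1062, 1142 and 1273 CPM in the Thpok-RKF- CD8 SP libraries) were high in each library and did not separate the groups. The B cell marker Ms4a1 had 0 counts in the 6 libraries.

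Thpok-RKF+ CD4+CD8+ cells differed from Thpok-RKF- CD8 SP cells in 913 genes, 5.52% of those tested, at an adjusted p below 0.05 (edgeR quasi-likelihood F test with Benjamini-Hochberg adjustment). Of these, 563 (3.4%) were higher and 350 (2.11%) lower in Thpok-RKF+ CD4+CD8+ cells. A change of at least 2-fold was found in 499 of them, 329 higher and 170 lower. The median log2 fold change was 1.18 among higher genes, -0.97 among lower genes and 0.02 over all genes tested. The libraries of both groups did not overlap in 21.1% of all genes tested and in 905 of the 913. The count moved with single libraries: it was 1782 without replicate 1, 561 without replicate 2 and 513 without replicate 3 of Thpok-RKF+ CD4+CD8+, and 777, 492 and 496 without replicates 1, 2 and 3 of Thpok-RKF- CD8 SP. Of the 913 genes, 840 were also called without Thpok-RKF+ CD4+CD8+ replicate 1, and 812 without replicate 1 of all 5 groups, where 2105 genes passed. With Thpok-RKF- CD4+CD8+ cells as a midpoint, 159 genes (0.961%) differed between Thpok-RKF+ and Thpok-RKF- CD4+CD8+ cells, and 403 genes (2.44%) between Thpok-RKF- CD4+CD8+ and Thpok-RKF- CD8 SP cells. These steps share the Thpok-RKF- CD4+CD8+ libraries, so their values are set side by side and not counted together.

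**Figure D1:**
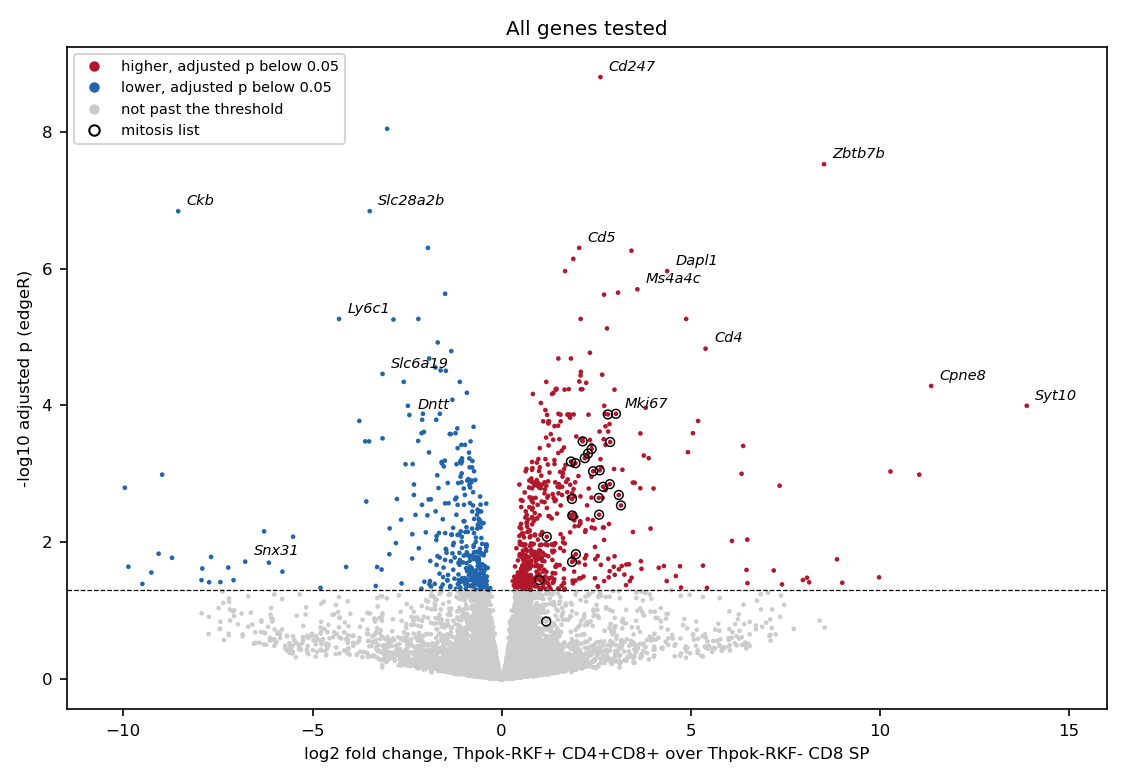
Each point is 1 of the 16550 genes tested; the x axis is the log2 fold change of Thpok-RKF+ CD4+CD8+ over Thpok-RKF- CD8 SP cells and the y axis -log10 of the adjusted p, with the 0.05 threshold dashed. Red and blue mark the 563 higher and 350 lower genes, and rings mark the 24 mitosis genes, of which 23 lie among the higher ones.

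Zbtb7b, the targeted gene, gave the largest separation among the marker genes. It stood at 812, 768 and 823 CPM in the Thpok-RKF+ CD4+CD8+ libraries, against 2.11, 2.51 and 1.92 CPM in the Thpok-RKF- CD8 SP libraries. Thpok-RKF+ CD4+CD8+ libraries were all far above Thpok-RKF- CD8 SP libraries, with a log2 fold change (± SE) of 8.52 ± 0.42 from n = 3 libraries in each group (adjusted p = 2.97e-08). It was also above the level in WT CD4 SP libraries, 64, 79.2 and 27.4 CPM. The step to Thpok-RKF+ from Thpok-RKF- CD4+CD8+ cells carried 8.34 log2 units of it, and the step between the Thpok-RKF- groups 0.18. Whether Zbtb7b counts include reads of Thpok-RKF is not given, and counts over the whole gene do not check the deletion of its floxed part.

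Cd4 encodes the helper coreceptor and was used for the gates, so its difference checks the sort. It was counted at 1123, 1036 and 1147 CPM in the Thpok-RKF+ CD4+CD8+ libraries, against 41.5, 19.9 and 17.4 CPM in the Thpok-RKF- CD8 SP libraries, with no overlap (log2 fold change 5.39 ± 0.49, adjusted p = 1.48e-05). Thpok-RKF- CD4+CD8+ libraries lay between, at 397, 214 and 234 CPM. The gates for CD8 were shared. Cd8a, the coreceptor alpha chain, had 935, 1254 and 1128 CPM in the Thpok-RKF+ CD4+CD8+ libraries, against 1171, 1657 and 1654 CPM in the Thpok-RKF- CD8 SP libraries, and the groups overlapped (log2 -0.43 ± 0.31, adjusted p = 0.525). Without replicate 1 of all groups the Cd8a difference passed the test, at -0.47 and adjusted p = 0.0414. Cd8b1, the beta chain, fell to 845, 1100.1 and 967 CPM in the Thpok-RKF+ CD4+CD8+ libraries, against 1414, 2132 and 2213 CPM in the Thpok-RKF- CD8 SP libraries. Its groups did not overlap (log2 fold change -0.98 ± 0.19, adjusted p = 0.00492), and its values were 0.14 in the step to Thpok-RKF+ CD4+CD8+ from Thpok-RKF- CD4+CD8+ cells and -1.12 in the step to Thpok-RKF- CD4+CD8+ from Thpok-RKF- CD8 SP cells.

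Cd247 encodes the CD3 zeta chain, which carries most of the TCR's signalling motifs. It stood at 2376, 2773 and 2699.8 CPM in the Thpok-RKF+ CD4+CD8+ libraries, against 418, 438 and 429 CPM in the Thpok-RKF- CD8 SP libraries. Every Thpok-RKF+ CD4+CD8+ library was above 5 times the level of every Thpok-RKF- CD8 SP library, and the spread within each group was small (log2 fold change 2.61 ± 0.10, adjusted p = 1.58e-09, the smallest in the comparison). The difference lay in the Thpok-RKF step: it was 2.58 in the step to Thpok-RKF+ CD4+CD8+ from Thpok-RKF- CD4+CD8+ cells and 0.03 in the step to Thpok-RKF- CD4+CD8+ from Thpok-RKF- CD8 SP cells. The WT libraries ran at 537, 463 and 559 CPM in CD4 SP and 401, 419.5 and 429.98 CPM in CD8 SP cells.

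Cd5, a receptor that dampens TCR signalling and whose surface level follows the strength of that signal, showed the other pattern. Its values were 402, 531 and 469 CPM in the Thpok-RKF+ CD4+CD8+ libraries, against 124, 103 and 111 CPM in the Thpok-RKF- CD8 SP libraries, without overlap (log2 fold change 2.05 ± 0.13, adjusted p = 4.97e-07). Here the difference was 0.14 in the step to Thpok-RKF+ CD4+CD8+ from Thpok-RKF- CD4+CD8+ cells and 1.90 in the step to Thpok-RKF- CD4+CD8+ from Thpok-RKF- CD8 SP cells, so both CD4+CD8+ groups stood near each other and above Thpok-RKF- CD8 SP cells. The WT libraries ran at 562, 701 and 706 CPM in CD4 SP and 312, 359 and 366 CPM in CD8 SP cells. Thpok-RKF- CD8 SP cells thus had the lowest Cd5 level of the 5 groups.

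Runx3 and Gata3 did not pass the test. Runx3 was counted at 361, 268 and 286 CPM in the Thpok-RKF+ CD4+CD8+ libraries, against 306, 247 and 247 CPM in the Thpok-RKF- CD8 SP libraries, and the groups overlapped (log2 0.19 ± 0.14, adjusted p = 0.548). Counts over the whole gene again do not check the floxed allele. Gata3, which acts upstream of Zbtb7b in helper differentiation, had 67.2, 88.4 and 93.4 CPM in the Thpok-RKF+ CD4+CD8+ libraries, against 72.9, 74.4 and 69.5 CPM in the Thpok-RKF- CD8 SP libraries (log2 0.20 ± 0.16, adjusted p = 0.579), also overlapping.

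**Figure D2:**
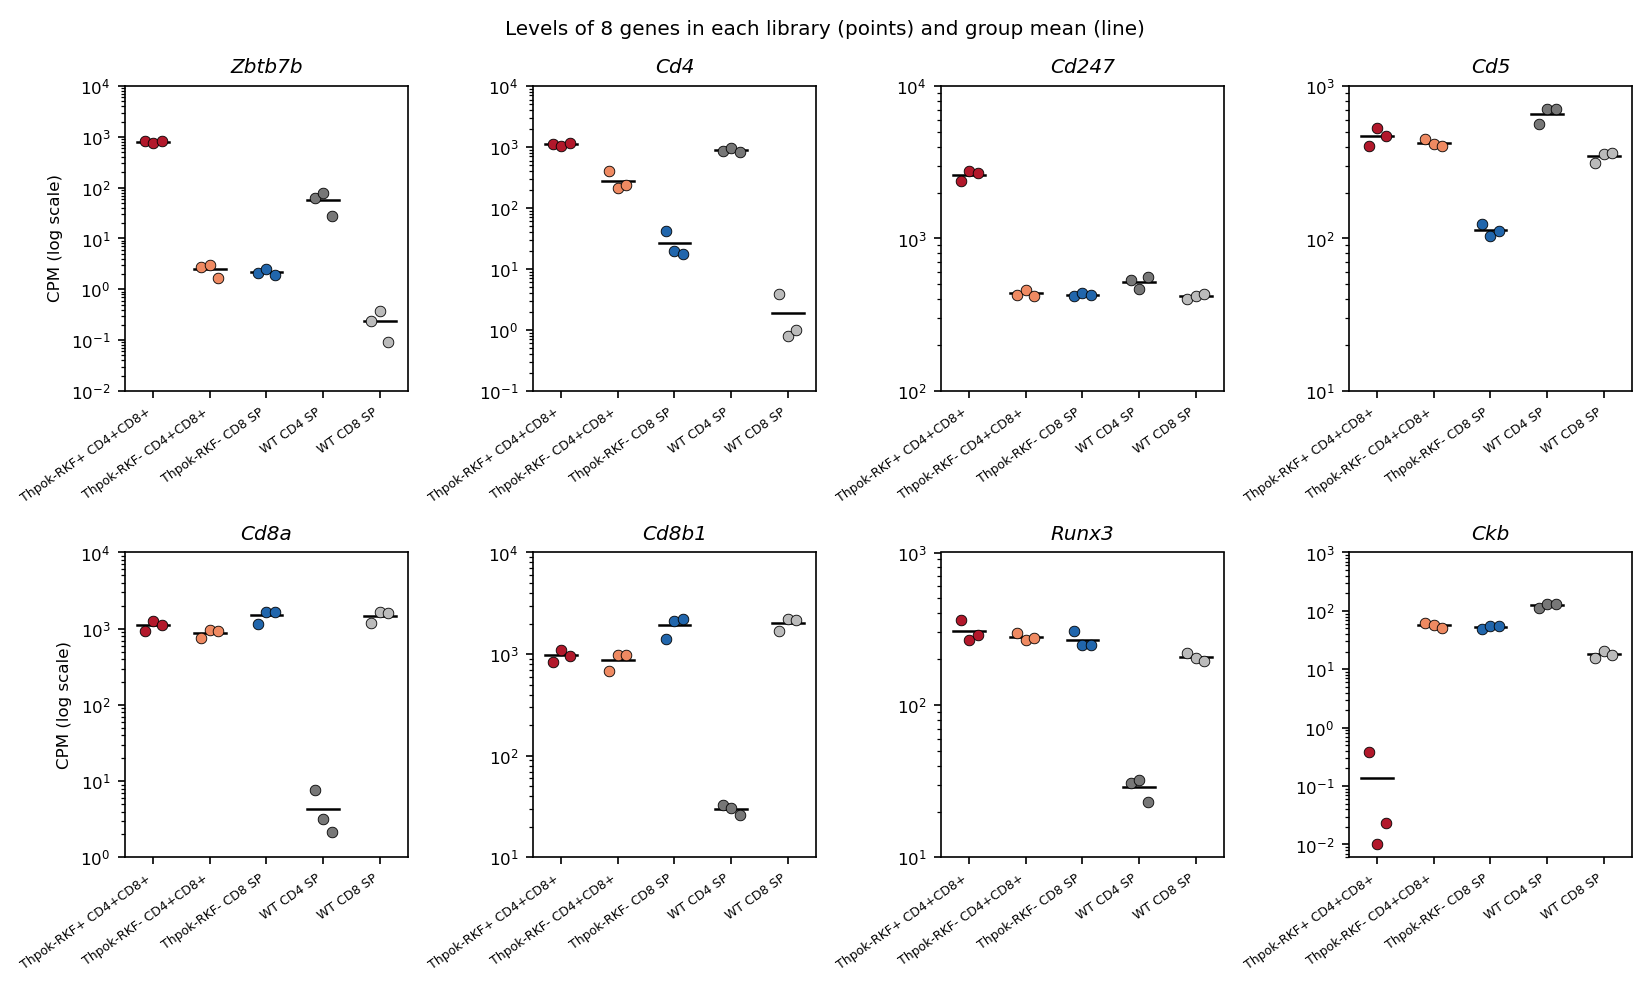
Points are single libraries and lines group means, in CPM on a log axis, for 8 genes in 5 groups; a library at 0 is drawn at 0.01. Zbtb7b and Cd247 are high in Thpok-RKF+ CD4+CD8+ alone among the mutant groups, and Ckb is near 0 in Thpok-RKF+ CD4+CD8+. Cd5 is lowest in Thpok-RKF- CD8 SP of the 5 groups.

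Lists of genes with a known role were then read against the 3.4% of tested genes that were higher and the 2.11% that were lower. Fits without a library called other shares of all genes, against which their list counts stand. Without Thpok-RKF+ CD4+CD8+ replicate 1, 1074 of 17219 tested genes rose and 708 fell. Without replicate 1 of all groups, 1250 of 16443 rose and 855 fell. Leaving out any other single library of the compared groups gave 316 to 500 higher and 173 to 277 lower genes. Of 14 helper lineage genes, 5 rose in Thpok-RKF+ CD4+CD8+ cells and 0 fell, with a median log2 fold change of 0.68. They were Zbtb7b, Cd4, Tnfrsf4, Cd5 and Tox, a nuclear factor needed for CD4 lineage thymocytes. Cd4 was used for the gates, and the rise of Zbtb7b lay in the Thpok-RKF step. The 5 therefore include members tied to the sort and to the Thpok-RKF label. Tnfrsf4, which encodes the costimulatory receptor OX40, had 61.2, 86 and 74.9 CPM in the Thpok-RKF+ CD4+CD8+ libraries, against 16.9, 9.03 and 7.27 CPM in the Thpok-RKF- CD8 SP libraries (log2 fold change 2.74 ± 0.34, adjusted p = 0.000202). Tox had 215, 268 and 263 CPM in the Thpok-RKF+ CD4+CD8+ libraries, against 131, 114 and 126 CPM in the Thpok-RKF- CD8 SP libraries (log2 1.01 ± 0.14). Both genes separated the groups. Cd40lg, the ligand through which helper cells activate B cells, had 42.4, 67.2 and 61 CPM in the Thpok-RKF+ CD4+CD8+ libraries, against 43.9, 57.4 and 60.3 CPM in the Thpok-RKF- CD8 SP libraries and overlapped (log2 0.08 ± 0.26, adjusted p = 0.923). Without replicate 1 of all groups, 8 of the 14 rose.

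The cytotoxic list moved both ways: of 22 tested genes, 3 rose (Eomes, Il2rb and Ctsw) and 2 fell (Cd8b1 and Itgae). Il2rb encodes the beta chain shared by the receptors for interleukins 2 and 15. It stood at 462, 420.3 and 406 CPM in the Thpok-RKF+ CD4+CD8+ libraries, against 207, 156 and 190.3 CPM in the Thpok-RKF- CD8 SP libraries, with no overlap (log2 fold change 1.22 ± 0.18, adjusted p = 0.000731). Eomes, a T-box factor of cytotoxic and memory cells, was low in both groups, with 3.51, 3.87 and 4.57 CPM in the Thpok-RKF+ CD4+CD8+ libraries, against 0.831, 0.303 and 0.803 CPM in the Thpok-RKF- CD8 SP libraries (log2 2.62 ± 0.62, adjusted p = 0.0214). Its call was lost without replicate 3 of Thpok-RKF+ CD4+CD8+ or replicate 2 or 3 of Thpok-RKF- CD8 SP (adjusted p = 0.0647 to 0.108). Ctsw, which encodes cathepsin W, had log2 0.80 ± 0.20, and its call was lost without replicate 2 or 3 of either group (adjusted p = 0.082 to 0.149). Itgae, the alpha E integrin chain, had log2 -0.58 ± 0.16, and was lost without replicate 2 or 3 of Thpok-RKF+ CD4+CD8+ or any replicate of Thpok-RKF- CD8 SP (adjusted p = 0.0688 to 0.195). The related T-box gene Tbx21 had 3.05, 8.92 and 10.8 CPM in the Thpok-RKF+ CD4+CD8+ libraries, against 0.247, 1.28 and 0.178 CPM in the Thpok-RKF- CD8 SP libraries and missed the threshold (log2 3.73 ± 1.12, adjusted p = 0.0711). It passed without Thpok-RKF+ CD4+CD8+ replicate 1 (adjusted p = 0.0357) and without replicate 1 of all groups (adjusted p = 0.0144). It also passed without the low-count filter (adjusted p = 0.00136) and with the 2 compared groups alone in the fit (adjusted p = 0.0447). DESeq2 (adjusted p = 0.0491) and limma (adjusted p = 0.00441) called it too. No call was gained under the other alternatives. Among 31 thymocyte transcription factors, 4 rose (Ikzf2, Id2, Tox and Klf2) and 1 fell. Id2, an inhibitor of E proteins, had 148, 183 and 153 CPM in the Thpok-RKF+ CD4+CD8+ libraries, against 89.9, 62.8 and 64.9 CPM in the Thpok-RKF- CD8 SP libraries (log2 fold change 1.16 ± 0.16, adjusted p = 0.00061). Rora, an orphan nuclear receptor gene, fell to 26.6, 26.4 and 29.3 CPM in the Thpok-RKF+ CD4+CD8+ libraries, against 65.1, 61.9 and 57.6 CPM in the Thpok-RKF- CD8 SP libraries (log2 fold change -1.17 ± 0.23). Neither gene overlapped between the groups, and 3 of 31 fell without Thpok-RKF+ CD4+CD8+ replicate 1.

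**Figure D3:**
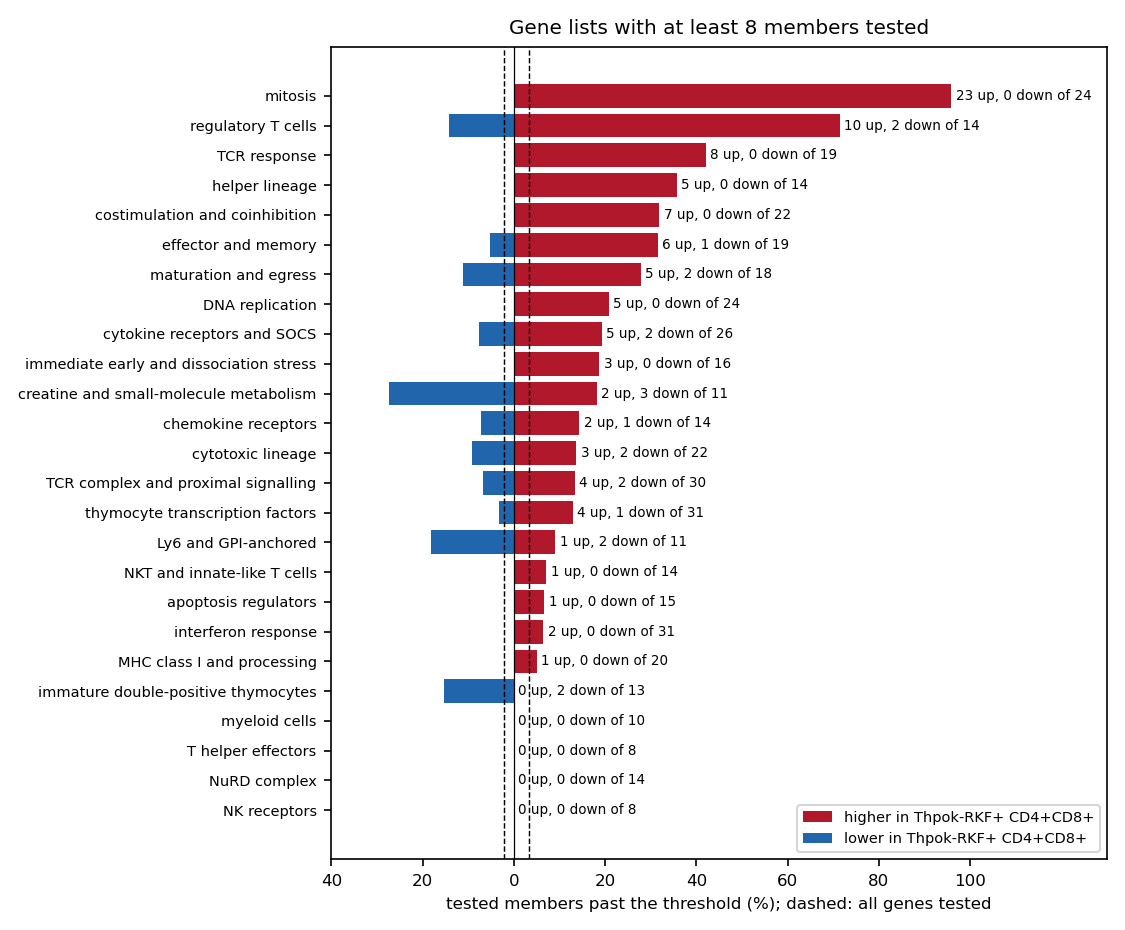
Bars give the share of tested members of each list that rose (red, right) or fell (blue, left) in Thpok-RKF+ CD4+CD8+ over Thpok-RKF- CD8 SP cells, for lists with at least 8 tested members; dashed lines give the shares over all genes tested. The mitosis list (23 of 24 higher), the regulatory T cell list (10 of 14) and the TCR response list (8 of 19) extend farthest to the right.

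Of 30 genes of the TCR complex and its proximal signalling, 4 rose and 2 fell, and the median log2 fold change was -0.07; 5 fell without Thpok-RKF+ CD4+CD8+ replicate 1. Beside Cd247, the adhesion and costimulatory receptor genes Cd6 and Cd2 and the phosphatase gene Ptpn6 (SHP-1) rose. Cd6 had 1147, 1789 and 1669.5 CPM in the Thpok-RKF+ CD4+CD8+ libraries, against 711, 623 and 669 CPM in the Thpok-RKF- CD8 SP libraries (log2 fold change 1.2 ± 0.14, adjusted p = 0.000137), and each Thpok-RKF+ CD4+CD8+ library was higher. The call of Cd2 (log2 1.09 ± 0.24) was lost without replicate 2 or 3 of Thpok-RKF+ CD4+CD8+ or replicate 1 or 2 of Thpok-RKF- CD8 SP (adjusted p = 0.0521 to 0.0758). Themis, a TCR adaptor gene of developing thymocytes, had log2 -0.39 ± 0.10, and its call was lost without replicate 2 or 3 of Thpok-RKF+ CD4+CD8+ or any replicate of Thpok-RKF- CD8 SP (adjusted p = 0.0822 to 0.125).

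Genes induced by TCR signalling rose in 8 of 19 cases and fell in 0, and the median log2 fold change was 1.49, against 0.02 over all genes. The 8 were the early response factors Nr4a1, Egr1, Egr2 and Egr3, their corepressor Nab2, the phosphatase Dusp5, Cd69 and Cd5. Nr4a1, which encodes the orphan receptor Nur77, had 198, 425 and 378 CPM in the Thpok-RKF+ CD4+CD8+ libraries, against 71.5, 44.5 and 36.9 CPM in the Thpok-RKF- CD8 SP libraries (log2 fold change 2.71 ± 0.31, adjusted p = 0.000101). The lowest Thpok-RKF+ CD4+CD8+ library, replicate 1, was still above the highest Thpok-RKF- CD8 SP library. Egr2 had 87, 132 and 127 CPM in the Thpok-RKF+ CD4+CD8+ libraries, against 25.2, 29.2 and 26.9 CPM in the Thpok-RKF- CD8 SP libraries (log2 2.09 ± 0.22, adjusted p = 5.81e-05). Egr1 had 281, 377 and 355 CPM in the Thpok-RKF+ CD4+CD8+ libraries, against 108, 124 and 125 CPM in the Thpok-RKF- CD8 SP libraries (log2 1.5 ± 0.18, adjusted p = 0.000133). All 3 genes separated the groups. By steps, Egr2 was 0.41 in the step to Thpok-RKF+ CD4+CD8+ from Thpok-RKF- CD4+CD8+ cells and 1.68 in the step to Thpok-RKF- CD4+CD8+ from Thpok-RKF- CD8 SP cells. Nr4a1 split more evenly, at 1.33 and 1.38 in the same steps. The list summed to 3380, 3410 and 3270 CPM in the Thpok-RKF+ CD4+CD8+ libraries, against 2400, 1680 and 1730 CPM in the Thpok-RKF- CD8 SP libraries. Thpok-RKF- CD4+CD8+ libraries summed to 3550, 2840 and 2810 CPM. The WT sums were 3560, 3160 and 3030 CPM in CD4 SP and 2590, 2650 and 2740 CPM in CD8 SP libraries. Thpok-RKF- CD8 SP cells thus had the lowest sums of the 5 groups. Cd69, an activation marker whose protein was kept low by both gates, had 235, 152 and 147 CPM in the Thpok-RKF+ CD4+CD8+ libraries, against 103, 69.2 and 69.4 CPM in the Thpok-RKF- CD8 SP libraries (log2 1.15 ± 0.30). Its call was lost without any replicate of Thpok-RKF+ CD4+CD8+ or replicate 2 or 3 of Thpok-RKF- CD8 SP (adjusted p = 0.0542 to 0.151). Not all listed genes followed: Tnfaip3, a feedback inhibitor of NF-kappaB, had 221, 99.8 and 104 CPM in the Thpok-RKF+ CD4+CD8+ libraries, against 223, 88.6 and 97.4 CPM in the Thpok-RKF- CD8 SP libraries (log2 0.05 ± 0.41, adjusted p = 0.973), and replicate 1 was the highest in both groups. The count was 12 of 19 without replicate 1 of all groups and 7 of 19 without Thpok-RKF+ CD4+CD8+ replicate 1. The immediate early and dissociation stress list, which shares Egr1, had 3 of 16 higher (Egr1, Ier2 and Zfp36), 0 lower and a median of 0.04, and 5 of 17 tested were higher without Thpok-RKF- CD8 SP replicate 1. Ier2 had 264, 510.5 and 493 CPM in the Thpok-RKF+ CD4+CD8+ libraries, against 179.8, 142 and 159.8 CPM in the Thpok-RKF- CD8 SP libraries (log2 1.39 ± 0.20), and the call of Zfp36 (log2 0.52 ± 0.13) was lost without replicate 2 or 3 of either group (adjusted p = 0.0646 to 0.133).

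Mitosis genes had the largest share of risen members among the 30 lists. Of 24, 23 rose and 0 fell, with a median log2 fold change of 2.33 and all 24 values above 0. The remaining gene, the kinase Aurka, had 4.21, 14.7 and 8.62 CPM in the Thpok-RKF+ CD4+CD8+ libraries, against 3.71, 4.6 and 3.88 CPM in the Thpok-RKF- CD8 SP libraries, which overlapped (log2 1.18 ± 0.43, adjusted p = 0.145). The list summed to 316, 337 and 317 CPM in the Thpok-RKF+ CD4+CD8+ libraries, against 82.5, 76.8 and 81.4 CPM in the Thpok-RKF- CD8 SP libraries, and the sums were even within each group. The Thpok-RKF- CD4+CD8+ libraries summed to 706, 656 and 653 CPM, above both. The sums were 236, 366 and 415 CPM in WT CD4 SP and 963, 1610 and 1700 CPM in WT CD8 SP libraries, so Thpok-RKF- CD8 SP cells had the lowest sums of the 5 groups. Mki67, the proliferation marker Ki-67, had 26.9, 23.2 and 16.2 CPM in the Thpok-RKF+ CD4+CD8+ libraries, against 3.12, 3.33 and 1.72 CPM in the Thpok-RKF- CD8 SP libraries, with no overlap (log2 fold change 3.02 ± 0.35, adjusted p = 0.000133). By steps, Mki67 was -1.45 in the step to Thpok-RKF+ CD4+CD8+ from Thpok-RKF- CD4+CD8+ cells and 4.47 in the step to Thpok-RKF- CD4+CD8+ from Thpok-RKF- CD8 SP cells, opposite in sign. Cdk1, the kinase that drives entry into mitosis, had 8.78, 7.17 and 6.94 CPM in the Thpok-RKF+ CD4+CD8+ libraries, against 1.46, 2.2 and 1.52 CPM in the Thpok-RKF- CD8 SP libraries (log2 2.14 ± 0.28, adjusted p = 0.000336). Ccnb2, a cyclin partner of it, had 16.2, 22.2 and 15.2 CPM in the Thpok-RKF+ CD4+CD8+ libraries, against 4.02, 1.3 and 2.03 CPM in the Thpok-RKF- CD8 SP libraries (log2 2.87 ± 0.38, adjusted p = 0.000343). Cenpe, a kinetochore motor gene, had 10.05, 8.86 and 8.69 CPM in the Thpok-RKF+ CD4+CD8+ libraries, against 1.73, 1.45 and 0.758 CPM in the Thpok-RKF- CD8 SP libraries (log2 2.81 ± 0.33, adjusted p = 0.000135). Each of these genes separated the groups by a clear gap, although their levels were low. Nusap1, a spindle protein gene, had log2 3.09 ± 0.52, or 4.18 without Thpok-RKF- CD8 SP replicate 1. The count was 24 of 24 without Thpok-RKF+ CD4+CD8+ replicate 1, 20 to 23 of 24 without each of the other 5 libraries, and 19 of 24 with these 2 groups alone in the fit.

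Of 24 DNA replication genes, 5 rose (Mcm10, Cdc6, Rrm2, Uhrf1 and E2f1), 0 fell and the median log2 fold change was 0.52, with 22 values above 0. Rrm2, a subunit of ribonucleotide reductase, had 32.6, 42.7 and 36.3 CPM in the Thpok-RKF+ CD4+CD8+ libraries, against 9.77, 9.31 and 10.7 CPM in the Thpok-RKF- CD8 SP libraries (log2 fold change 1.91 ± 0.28, adjusted p = 0.000713). Uhrf1, which helps to copy DNA methylation, had 40.3, 35.8 and 37.2 CPM in the Thpok-RKF+ CD4+CD8+ libraries, against 20.3, 13.1 and 9.5 CPM in the Thpok-RKF- CD8 SP libraries (log2 1.40 ± 0.24, adjusted p = 0.00251). Mcm10, a replication initiation factor, had 2.56, 5.14 and 3.39 CPM in the Thpok-RKF+ CD4+CD8+ libraries, against 0.786, 0.519 and 0.535 CPM in the Thpok-RKF- CD8 SP libraries (log2 2.59 ± 0.33, adjusted p = 0.000241). These 3 genes did not overlap between the groups. The calls of Cdc6 and E2f1 were lost in 3 of 6 fits that left out 1 library each, with adjusted p up to 0.12 for Cdc6 (without replicate 2 of Thpok-RKF+ CD4+CD8+ or replicate 1 or 2 of Thpok-RKF- CD8 SP) and up to 0.0956 for E2f1 (without replicate 3 of Thpok-RKF+ CD4+CD8+ or replicate 1 or 3 of Thpok-RKF- CD8 SP). Between 3 and 6 of 24 rose without 1 library (3 without Thpok-RKF- CD8 SP replicate 1), and 8 rose without replicate 1 of all groups.

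**Figure D4:**
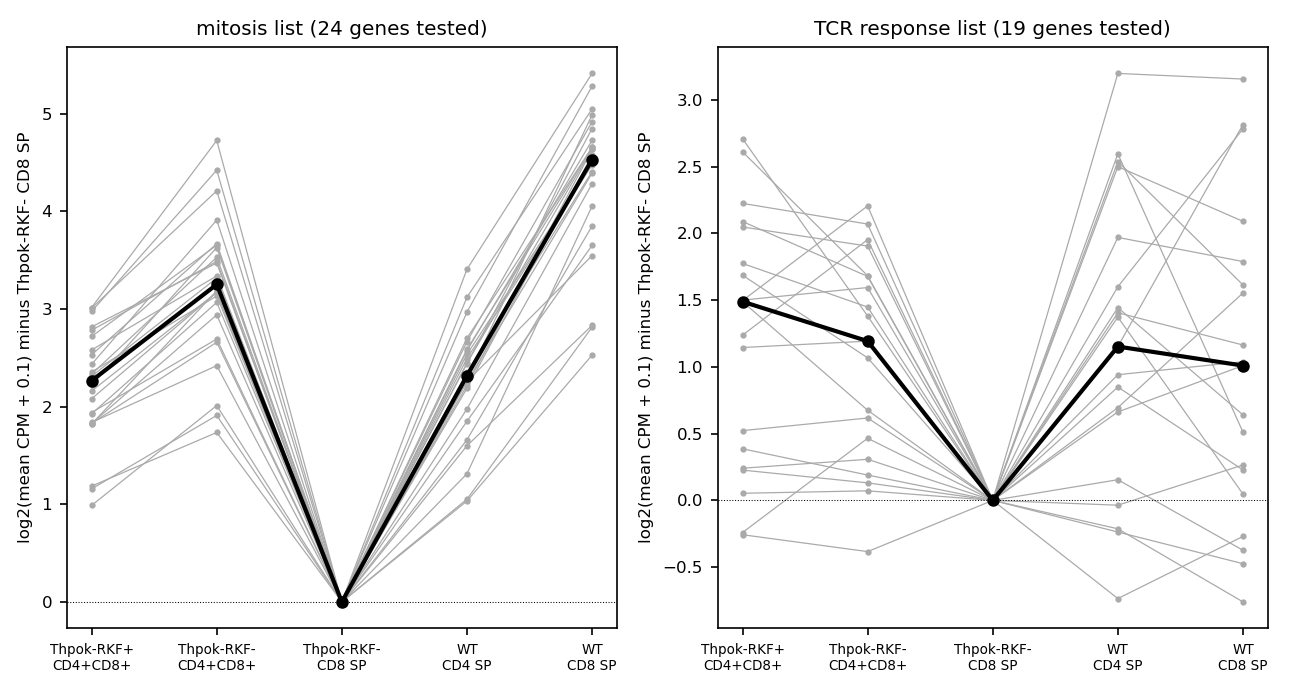
Grey points and lines follow single genes, and black the median, of log2(mean CPM + 0.1) in 5 groups relative to Thpok-RKF- CD8 SP; lines join groups for reading and do not mark an order in time. The median of the mitosis genes is above 0 in the other 4 groups and highest in WT CD8 SP, and the TCR response median is above 0 in Thpok-RKF+ CD4+CD8+. Summed TCR response levels were lowest in Thpok-RKF- CD8 SP of the 5 groups, so a level above it is not particular to Thpok-RKF+ CD4+CD8+.

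The promoters of both lists were searched for motifs known from cell cycle genes, and those of Ccnb2, Cdk1 and Uhrf1 are shown because these genes rose and hold the motifs. RefSeq promoter sequences (GRCm38.p6, 250 bases before to 50 after each gene's start) were found for 20 of 24 mitosis genes and 20 of 24 DNA replication genes. Searched on both strands were the CCAAT box (CCAAT, read as ATTGG on the other strand), the CHR element of mitotic genes (TTTGAA) and a form of the E2F site of replication genes (GCGGGAA). The CCAAT box was found in 18 of 20 mitosis promoters (90%), 13 of 20 replication promoters (65%) and 39.2% of the promoters of the 10573 tested genes that matched. TTTGAA was found in 15 of 20 mitosis promoters (75%), 2 of 20 replication promoters (10%) and 12.4% of all matched ones. GCGGGAA was found in 1 of 20 mitosis promoters (5%), 8 of 20 replication promoters (40%) and 8.46% of all matched ones. Over the 432 matched genes that rose, the shares were 40.3%, 18.8% and 8.56%, and over the 262 that fell 40.1%, 11.8% and 7.63%. A match is a run of letters, not a shown binding site. The promoters of Ccnb2 (chr9:70421505-70421804, minus strand), Cdk1 (chr10:69352863-69353162, minus strand) and Uhrf1 (chr17:56303087-56303386, plus strand) follow, 5′ to 3′ along the gene, with matches in capitals. Ccnb2 and Cdk1 each hold 3 CCAAT boxes and 2 TTTGAA, and Uhrf1 holds 1 GCGGGAA, read on the other strand as TTCCCGC, and 3 CCAAT boxes, of which 2 on opposite strands overlap.
Ccnb2: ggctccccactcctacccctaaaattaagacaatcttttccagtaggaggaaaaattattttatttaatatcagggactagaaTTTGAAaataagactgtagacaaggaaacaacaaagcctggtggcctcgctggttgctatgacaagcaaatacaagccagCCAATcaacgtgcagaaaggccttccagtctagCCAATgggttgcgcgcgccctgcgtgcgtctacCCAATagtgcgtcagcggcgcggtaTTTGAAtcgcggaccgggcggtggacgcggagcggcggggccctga
Cdk1: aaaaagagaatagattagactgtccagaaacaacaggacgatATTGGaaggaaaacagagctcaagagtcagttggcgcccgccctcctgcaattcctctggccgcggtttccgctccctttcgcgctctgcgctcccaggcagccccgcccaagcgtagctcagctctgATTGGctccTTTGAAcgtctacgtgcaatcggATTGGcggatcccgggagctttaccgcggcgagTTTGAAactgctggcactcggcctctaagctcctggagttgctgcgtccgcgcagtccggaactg
Uhrf1: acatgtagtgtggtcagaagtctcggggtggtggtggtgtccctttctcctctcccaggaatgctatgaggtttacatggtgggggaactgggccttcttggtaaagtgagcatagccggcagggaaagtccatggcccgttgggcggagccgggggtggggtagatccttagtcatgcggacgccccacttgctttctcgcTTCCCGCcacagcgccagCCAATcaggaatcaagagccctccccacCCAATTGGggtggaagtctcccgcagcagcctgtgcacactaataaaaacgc

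Markers of regulatory T cells, a helper-derived lineage defined by Foxp3, rose as a list: of 14, 10 rose and 2 fell, with a median log2 fold change of 1.55. The list sum was 894, 1150 and 1040 CPM in the Thpok-RKF+ CD4+CD8+ libraries, against 631, 551 and 568 CPM in the Thpok-RKF- CD8 SP libraries. Thpok-RKF- CD4+CD8+ libraries summed to 1000, 830 and 857 CPM. The WT sums were 990, 1080 and 1250 CPM in CD4 SP and 1210, 1300 and 1290 CPM in CD8 SP libraries. In WT CD8 SP, the listed gene Itgae alone gave 887, 867 and 850 CPM. Thpok-RKF- CD8 SP cells thus had the lowest sums of the 5 groups. Foxp3 itself was low, with 8.57, 8.88 and 8.95 CPM in the Thpok-RKF+ CD4+CD8+ libraries, against 2.27, 3.85 and 2.45 CPM in the Thpok-RKF- CD8 SP libraries (log2 fold change 1.62 ± 0.34, adjusted p = 0.01). Its call was lost without replicate 3 of Thpok-RKF- CD8 SP (adjusted p = 0.0572). By steps, Foxp3 was -1.87 in the step to Thpok-RKF+ CD4+CD8+ from Thpok-RKF- CD4+CD8+ cells and 3.49 in the step to Thpok-RKF- CD4+CD8+ from Thpok-RKF- CD8 SP cells, and WT CD4 SP libraries had 31.5, 53.7 and 39.3 CPM. Lrrc32, which presents latent TGF-beta on regulatory T cells, had 5.97, 4.26 and 7.51 CPM in the Thpok-RKF+ CD4+CD8+ libraries, against 0, 0 and 0 CPM in the Thpok-RKF- CD8 SP libraries. It was at least 265-fold higher, the bound that a floor of 3 counts in the silent group gives. Izumo1r, the folate receptor 4 gene, had 242, 377 and 327 CPM in the Thpok-RKF+ CD4+CD8+ libraries, against 89.99, 91.4 and 99.8 CPM in the Thpok-RKF- CD8 SP libraries (log2 1.75 ± 0.21, adjusted p = 0.000136). Capg, an actin-capping protein gene, had 107, 177 and 168 CPM in the Thpok-RKF+ CD4+CD8+ libraries, against 58, 48.6 and 53.9 CPM in the Thpok-RKF- CD8 SP libraries (log2 1.5 ± 0.21, adjusted p = 0.000496). Tnfrsf9, the costimulatory receptor 4-1BB, had 16.4, 27.8 and 28.3 CPM in the Thpok-RKF+ CD4+CD8+ libraries, against 4.74, 5.79 and 7.94 CPM in the Thpok-RKF- CD8 SP libraries (log2 1.97 ± 0.26). These genes separated the groups. Il2ra, the high-affinity interleukin 2 receptor chain, had 10.01, 6.01 and 7.82 CPM in the Thpok-RKF+ CD4+CD8+ libraries, against 4.15, 6.01 and 5.6 CPM in the Thpok-RKF- CD8 SP libraries, which overlapped, as did Ctla4 with 20.1, 12.4 and 12.7 CPM in the Thpok-RKF+ CD4+CD8+ libraries, against 51, 17.3 and 17.3 CPM in the Thpok-RKF- CD8 SP libraries. Itgae and Gpr83 fell, and the call of Gpr83 (log2 -0.57 ± 0.15) was lost without any 1 of the 6 libraries (adjusted p = 0.0521 to 0.153). Ikzf2, the Helios gene, had log2 2.27 ± 0.43. Ikzf4 had log2 1.01 ± 0.21, lost without replicate 3 of either group (adjusted p = 0.0521 to 0.0648). Of the 14, 8 to 10 rose and 0 or 1 fell without 1 library each.

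Costimulatory and coinhibitory receptors and ligands of T cells rose in 7 of 22 cases and fell in 0. Beside Tnfrsf4 and Tnfrsf9, these were Tnfrsf18, Tnfsf11, Cd200, Btla and Cd160. Cd200, an inhibitory ligand gene, had 31.6, 44.6 and 41.4 CPM in the Thpok-RKF+ CD4+CD8+ libraries, against 8.62, 8.56 and 10.5 CPM in the Thpok-RKF- CD8 SP libraries (log2 fold change 2.09 ± 0.17, adjusted p = 5.44e-06). Tnfsf11 encodes RANKL, through which T cells act on thymic epithelium, and had 12, 18.1 and 18.5 CPM in the Thpok-RKF+ CD4+CD8+ libraries, against 2.83, 3.18 and 3.66 CPM in the Thpok-RKF- CD8 SP libraries (log2 2.33 ± 0.21, adjusted p = 1.7e-05). Neither overlapped. Btla had log2 0.75 ± 0.16, and its call was lost without replicate 3 of Thpok-RKF+ CD4+CD8+ or replicate 1 or 2 of Thpok-RKF- CD8 SP (adjusted p = 0.0508 to 0.0726). Of 26 cytokine receptor and SOCS genes, 5 rose (Il12rb1, Il2rb, Il4ra, Il6st and Il27ra) and 2 fell (Socs3 and Socs1), with 8 higher without Thpok-RKF+ CD4+CD8+ replicate 1. Il4ra, the interleukin 4 receptor alpha chain, had 371, 341 and 354 CPM in the Thpok-RKF+ CD4+CD8+ libraries, against 212, 168 and 207 CPM in the Thpok-RKF- CD8 SP libraries (log2 0.86 ± 0.14, adjusted p = 0.00148). Il6st encodes gp130, the signalling chain for interleukin 6, and had 255, 258 and 319 CPM in the Thpok-RKF+ CD4+CD8+ libraries, against 173, 167 and 164 CPM in the Thpok-RKF- CD8 SP libraries (log2 0.72 ± 0.12, adjusted p = 0.00159). Socs3, a feedback inhibitor of cytokine receptors that act through gp130, fell to 78.7, 99.95 and 92.5 CPM in the Thpok-RKF+ CD4+CD8+ libraries, against 182, 288 and 298 CPM in the Thpok-RKF- CD8 SP libraries (log2 fold change -1.5 ± 0.21, adjusted p = 0.000642). Il4ra and Il6st were higher and Socs3 lower in each Thpok-RKF+ CD4+CD8+ library, with no overlap. The smaller fall of Socs1 (log2 -0.44 ± 0.11) was lost without replicate 1 or 3 of Thpok-RKF+ CD4+CD8+ or replicate 2 or 3 of Thpok-RKF- CD8 SP (adjusted p = 0.0519 to 0.136).

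Among 14 chemokine and related receptors, 2 rose and 1 fell. Gpr183, the oxysterol receptor EBI2, had 89.5, 95.6 and 93.6 CPM in the Thpok-RKF+ CD4+CD8+ libraries, against 33.9, 39.5 and 44.9 CPM in the Thpok-RKF- CD8 SP libraries (log2 fold change 1.24 ± 0.15, adjusted p = 0.000171). Ccr8 had 44.4, 34.4 and 30.2 CPM in the Thpok-RKF+ CD4+CD8+ libraries, against 13.6, 5.51 and 6.78 CPM in the Thpok-RKF- CD8 SP libraries (log2 2.08 ± 0.39, adjusted p = 0.00493). Both were without overlap. Ccr9, the receptor for the thymic and gut chemokine CCL25, had 535, 294 and 313 CPM in the Thpok-RKF+ CD4+CD8+ libraries, against 545, 731 and 617 CPM in the Thpok-RKF- CD8 SP libraries (log2 -0.73 ± 0.19), and its call was lost without replicate 2 or 3 of either group (adjusted p = 0.101 to 0.184).

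Of 18 genes of late maturation and egress, 5 rose (Dapl1, Ly6c2, Ms4a4b, S1pr1 and Klf2) and 2 fell (Slfn1 and Slfn2). Klf2 activates S1pr1, the receptor that mature thymocytes use to leave the thymus. Klf2 had 416, 332 and 328 CPM in the Thpok-RKF+ CD4+CD8+ libraries, against 227, 242 and 228 CPM in the Thpok-RKF- CD8 SP libraries (log2 fold change 0.63 ± 0.12, adjusted p = 0.00435). Its mean of 359 CPM in Thpok-RKF+ CD4+CD8+ was below 446 CPM in Thpok-RKF- CD4+CD8+, 453 CPM in WT CD4 SP and 590 CPM in WT CD8 SP cells. By steps, Klf2 was -0.31 to Thpok-RKF+ from Thpok-RKF- CD4+CD8+ and 0.94 to Thpok-RKF- CD4+CD8+ from Thpok-RKF- CD8 SP cells. S1pr1 had 956, 1216 and 1268 CPM in the Thpok-RKF+ CD4+CD8+ libraries, against 837, 669.7 and 661 CPM in the Thpok-RKF- CD8 SP libraries (log2 0.67 ± 0.13, adjusted p = 0.00528). Dapl1 had 58.6, 92 and 83.5 CPM in the Thpok-RKF+ CD4+CD8+ libraries, against 4.87, 2.46 and 3.95 CPM in the Thpok-RKF- CD8 SP libraries (log2 4.37 ± 0.31, adjusted p = 1.09e-06), and both steps were above 0 (1.77 to Thpok-RKF+ from Thpok-RKF- CD4+CD8+, 2.60 to Thpok-RKF- CD4+CD8+ from Thpok-RKF- CD8 SP). None of the 3 overlapped. Slfn1 had log2 -0.52 ± 0.12 and Slfn2 -0.46 ± 0.12; the first was lost without replicate 3 of Thpok-RKF+ CD4+CD8+ or replicate 1 of Thpok-RKF- CD8 SP (adjusted p = 0.0647 to 0.0673) and the second without replicate 1 or 3 of Thpok-RKF+ CD4+CD8+ or any replicate of Thpok-RKF- CD8 SP (adjusted p = 0.0511 to 0.166). Slfn1 and Slfn2, Ms4a4b and Ms4a4c, Ly6c1 and Ly6c2, and H2-Q6 and H2-Q7 are close relatives. Reads that matched several places were set aside by the authors' counting (3.67% to 4.43% of counted reads), so the level of each of these genes is uncertain.

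Ly6c2 and Ly6c1, which encode small membrane proteins of mature T cells, moved in opposite directions. Ly6c2 rose to 54.4, 50.9 and 42.7 CPM in the Thpok-RKF+ CD4+CD8+ libraries, against 7.48, 4.93 and 5.15 CPM in the Thpok-RKF- CD8 SP libraries (log2 fold change 3.08 ± 0.23, adjusted p = 2.25e-06). Ly6c1 fell to 4.82, 3.24 and 2.39 CPM in the Thpok-RKF+ CD4+CD8+ libraries, against 58.8, 74.5 and 73 CPM in the Thpok-RKF- CD8 SP libraries (log2 -4.30 ± 0.35, adjusted p = 5.44e-06). Neither overlapped. In the list of 11 Ly6 and GPI-anchored genes, Thy1 was the other to fall (log2 -0.84 ± 0.20), a call lost without replicate 2 or 3 of either group (adjusted p = 0.0762 to 0.111); 2 of 12 tested rose without Thpok-RKF+ CD4+CD8+ replicate 1. H2-Q6, a nonclassical MHC class I gene, was the 1 of 20 MHC class I and processing genes to rise, with 74.5, 63.9 and 64.3 CPM in the Thpok-RKF+ CD4+CD8+ libraries, against 11.7, 8.93 and 8.87 CPM in the Thpok-RKF- CD8 SP libraries (log2 2.78 ± 0.24, adjusted p = 7.48e-06). No gene of that list fell. Without Thpok-RKF+ CD4+CD8+ replicate 1, 6 of 20 rose, against 1074 of all 17219 genes tested. Without replicate 1 of all groups, 7 rose, against 1250 of all 16443 genes tested. Of 31 interferon response genes, 2 rose and 0 fell, with a median of 0.10. Samhd1, a nucleotide hydrolase that restricts viruses, had 429, 591 and 547 CPM in the Thpok-RKF+ CD4+CD8+ libraries, against 224, 161 and 188 CPM in the Thpok-RKF- CD8 SP libraries (log2 1.45 ± 0.15, adjusted p = 5.72e-05) and no overlap. Oas1a had log2 1.02 ± 0.28, a call lost without replicate 1 or 3 of Thpok-RKF+ CD4+CD8+ or any replicate of Thpok-RKF- CD8 SP (adjusted p = 0.0582 to 0.181), and 5 of 31 rose without Thpok-RKF+ CD4+CD8+ replicate 1.

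Of 19 effector and memory genes, 6 rose (Ly6c2, Anxa2, Lgals1, Id2, Crip1 and Vim) and 1 fell. Anxa2, a calcium-dependent membrane-binding protein gene, had 22.1, 30.9 and 22.2 CPM in the Thpok-RKF+ CD4+CD8+ libraries, against 4.29, 3.87 and 3.34 CPM in the Thpok-RKF- CD8 SP libraries (log2 fold change 2.71 ± 0.21, adjusted p = 2.4e-06). Lgals1, the galectin-1 gene, had 33.1, 37.5 and 35.3 CPM in the Thpok-RKF+ CD4+CD8+ libraries, against 11.5, 7.91 and 10.3 CPM in the Thpok-RKF- CD8 SP libraries (log2 1.83 ± 0.17, adjusted p = 2.06e-05). Both separated the groups, and by steps their values were 0.39 and 0.12 to Thpok-RKF+ from Thpok-RKF- CD4+CD8+ cells and 2.31 and 1.71 to Thpok-RKF- CD4+CD8+ from Thpok-RKF- CD8 SP cells. S100a6 had 0 counts in Thpok-RKF+ CD4+CD8+ and 57 in Thpok-RKF- CD8 SP libraries, at least 19-fold lower, and its call was lost without replicate 2 or 3 of either group (adjusted p = 0.0648 to 0.0791). Of 15 apoptosis regulators, Bid rose (log2 0.73 ± 0.20), a call lost without replicate 2 or 3 of Thpok-RKF+ CD4+CD8+ or any replicate of Thpok-RKF- CD8 SP (adjusted p = 0.0788 to 0.236), while 3 rose and 1 fell without Thpok-RKF+ CD4+CD8+ replicate 1. By edgeR, 0 of 14 genes of the NuRD complex, 0 of 8 NK receptors and 0 of 8 T helper effectors passed. At an unadjusted p below 0.05 these counts were 3, 2 and 3, by DESeq2 2, 1 and 2, and by limma 0, 1 and 1. Il13, Il17a, Il22 and Il10 had 0 counts in both groups. The smallest p of the T helper effectors was that of Tbx21, given above, that of NuRD was for Mta1 (52.1, 26.7 and 39.3 CPM in the Thpok-RKF+ CD4+CD8+ libraries, against 50.9, 61.8 and 70.2 CPM in the Thpok-RKF- CD8 SP libraries; adjusted p = 0.0917), and that of the NK receptors for Klrb1f (0, 0.281 and 0.332 CPM in the Thpok-RKF+ CD4+CD8+ libraries, against 1.17, 2.36 and 2.03 CPM in the Thpok-RKF- CD8 SP libraries; adjusted p = 0.138). Without Thpok-RKF+ CD4+CD8+ replicate 1, 1 NuRD gene rose and 1 fell, Mta1 passed (log2 -0.87, adjusted p = 0.0117), and 1 T helper effector rose; without Thpok-RKF- CD8 SP replicate 1, 1 T helper effector fell.

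Among genes with a mean log2 CPM of at least 3 in the higher group, the largest rises beside Zbtb7b and Cd4 were those of Syt10 and Cpne8, a calcium sensor of vesicle release and a copine, which binds membrane lipids with calcium. Syt10 had 33.4, 48 and 45.7 CPM in the Thpok-RKF+ CD4+CD8+ libraries and 0 counts in the Thpok-RKF- CD8 SP libraries, at least 1910-fold higher by the floor of 3 counts (adjusted p = 0.000101). Cpne8 had 31.1, 22.3 and 26.6 CPM in the Thpok-RKF+ CD4+CD8+ libraries and 1 count in all 3 Thpok-RKF- CD8 SP libraries, a ratio of 3620 with an exact 95% interval of 649 to 143000 that covers counting error alone (adjusted p = 5.19e-05). Both genes were also near 0 in Thpok-RKF- CD4+CD8+ libraries, at no more than 0.0407 and 0.0203 CPM, and below 1 CPM in each WT library. Rabl2, a small GTPase gene of cilia, had 13.6, 18.4 and 18.6 CPM in the Thpok-RKF+ CD4+CD8+ libraries, against 1.3, 0.778 and 1.05 CPM in the Thpok-RKF- CD8 SP libraries (log2 fold change 4.01 ± 0.66, adjusted p = 0.00164). In the RefSeq gene order of GRCm38.p6 on chromosome 15, Shank3, Acr, Rabl2, Syt10, Alg10b and Cpne8 follow each other. Acr was not tested, and the other 5 rose. Their log2 fold changes were 5.32 for Shank3, 4.01 for Rabl2, 13.88 for Syt10, 2.24 for Alg10b and 11.35 for Cpne8, where those of Syt10 and Cpne8 depend on the prior count. Shank3 and Alg10b were looked at for their place, and naming them came after seeing their values. Abcd2, 3 genes past Cpne8 in that order, had log2 2.90 and did not pass (adjusted p = 0.201), and Arsa, on the other side, had -0.37 (adjusted p = 0.338).

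Other large rises followed. Ms4a4c, a membrane-spanning 4-domain gene, had 33.8, 59.1 and 53.7 CPM in the Thpok-RKF+ CD4+CD8+ libraries, against 4.13, 3.7 and 4.37 CPM in the Thpok-RKF- CD8 SP libraries (log2 fold change 3.59 ± 0.27, adjusted p = 2.01e-06). Sytl2, an effector of Rab27 in granule transport, had 84, 105 and 111 CPM in the Thpok-RKF+ CD4+CD8+ libraries, against 11.5, 7.39 and 8.94 CPM in the Thpok-RKF- CD8 SP libraries (log2 3.43 ± 0.22, adjusted p = 5.46e-07). Prelid2 had 9.1, 11 and 8.74 CPM in the Thpok-RKF+ CD4+CD8+ libraries, against 0.853, 0.389 and 1.36 CPM in the Thpok-RKF- CD8 SP libraries (log2 3.47 ± 0.55, adjusted p = 0.00134). No library of Thpok-RKF- CD8 SP reached the lowest Thpok-RKF+ CD4+CD8+ library in these genes. Ms4a4c lay mainly in the step between the Thpok-RKF- groups (2.75, and 0.84 to Thpok-RKF+ from Thpok-RKF- CD4+CD8+), and Prelid2 in the Thpok-RKF step (3.18, and 0.29 between the Thpok-RKF- groups). Itih5, of the inter-alpha-trypsin inhibitor family, had 12.6, 13.1 and 8.6 CPM in the Thpok-RKF+ CD4+CD8+ libraries, against 1.82, 1.28 and 0 CPM in the Thpok-RKF- CD8 SP libraries (log2 3.47 ± 0.69, or 4.16 without Thpok-RKF- CD8 SP replicate 1), and its call was lost with the 2 compared groups alone in the fit (adjusted p = 0.105). Arhgap20, a GTPase-activating protein gene, had log2 3.10 ± 0.75, with 3.81 without Thpok-RKF- CD8 SP replicate 3, and its call was lost without replicate 2 or 3 of Thpok-RKF+ CD4+CD8+ or replicate 1 or 2 of Thpok-RKF- CD8 SP (adjusted p = 0.0686 to 0.122).

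Under the same minimum level, Ckb showed the largest fall. It encodes brain creatine kinase, which buffers ATP through creatine phosphate. It had 0.381, 0 and 0.0237 CPM in the Thpok-RKF+ CD4+CD8+ libraries, against 49.5, 54.1 and 56.1 CPM in the Thpok-RKF- CD8 SP libraries, so the Thpok-RKF+ CD4+CD8+ libraries were at or near 0 (log2 fold change -8.55 ± 0.49, adjusted p = 1.44e-07). Leaving out replicate 1 of Thpok-RKF+ CD4+CD8+ moved the log2 fold change to -11.86 and leaving out its replicate 2 to -7.96. The fall lay in the Thpok-RKF step: Ckb was -8.64 in the step to Thpok-RKF+ CD4+CD8+ from Thpok-RKF- CD4+CD8+ cells and 0.09 in the step to Thpok-RKF- CD4+CD8+ from Thpok-RKF- CD8 SP cells. In WT cells it stood at 113, 129.8 and 129 CPM in CD4 SP and 15.7, 20.6 and 17.8 CPM in CD8 SP libraries. In the list of 11 creatine and small-molecule metabolism genes, chosen in part for genes that an earlier reading of these data had shown to move, 2 rose (Dhrs7 and Sardh) and 3 fell (Ckb, Pcsk1 and Slc6a19). Slc6a19, a sodium-dependent neutral amino acid transporter gene, had 147, 104 and 93.4 CPM in the Thpok-RKF+ CD4+CD8+ libraries, against 981, 1094 and 984 CPM in the Thpok-RKF- CD8 SP libraries (log2 -3.15 ± 0.31, adjusted p = 3.46e-05). Pcsk1, a proprotein convertase gene, had 8.59, 10.4 and 17.7 CPM in the Thpok-RKF+ CD4+CD8+ libraries, against 84.5, 122 and 119 CPM in the Thpok-RKF- CD8 SP libraries (log2 -3.15 ± 0.41, adjusted p = 0.000303). Dhrs7, a short-chain dehydrogenase gene, had 32.4, 57.2 and 56.6 CPM in the Thpok-RKF+ CD4+CD8+ libraries, against 11.2, 12.1 and 10.03 CPM in the Thpok-RKF- CD8 SP libraries (log2 2.13 ± 0.23, adjusted p = 5.78e-05). None of these overlapped between the groups.

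Further large falls included Tdrd5, Slc28a2b and Grm6, which had their highest levels of the 5 groups in Thpok-RKF- CD8 SP cells. Tdrd5, a tudor domain gene known from the germ line, had 8.25, 10.4 and 11 CPM in the Thpok-RKF+ CD4+CD8+ libraries, against 106, 119 and 112 CPM in the Thpok-RKF- CD8 SP libraries (log2 fold change -3.50 ± 0.46, adjusted p = 0.000336), and at most 23.4 CPM in the other 9 libraries. Slc28a2b, of the nucleoside transporter family, had 69.2, 51.5 and 64.9 CPM in the Thpok-RKF+ CD4+CD8+ libraries, against 909.7, 576 and 595 CPM in the Thpok-RKF- CD8 SP libraries (log2 -3.49 ± 0.20, adjusted p = 1.44e-07). Grm6, a metabotropic glutamate receptor gene, had 1.9, 0.886 and 1.85 CPM in the Thpok-RKF+ CD4+CD8+ libraries, against 17.2, 24.4 and 21.4 CPM in the Thpok-RKF- CD8 SP libraries (log2 -3.76 ± 0.46, adjusted p = 0.000169). In these 3 genes the lowest Thpok-RKF- CD8 SP library was several times the highest Thpok-RKF+ CD4+CD8+ library. Slit3, a guidance ligand gene, had 0.317, 0.0432 and 0 CPM in the Thpok-RKF+ CD4+CD8+ libraries, against 9.14, 11.2 and 8.83 CPM in the Thpok-RKF- CD8 SP libraries (log2 -6.28 ± 1.17, or -8.58 without Thpok-RKF+ CD4+CD8+ replicate 1). Gprin3 had 5.97, 1.53 and 1.23 CPM in the Thpok-RKF+ CD4+CD8+ libraries, against 36.2, 31 and 39.6 CPM in the Thpok-RKF- CD8 SP libraries (log2 -3.61 ± 0.48, or -4.67 without the same library). Replicate 1 was the highest of the Thpok-RKF+ CD4+CD8+ libraries in both. Snx31, a sorting nexin gene, had 0.296, 0 and 0 CPM in the Thpok-RKF+ CD4+CD8+ libraries, against 12.1, 10.4 and 11.7 CPM in the Thpok-RKF- CD8 SP libraries (log2 -6.78 ± 1.57, or -11.97 without the same library). Its call was lost without replicate 2 or 3 of either group (adjusted p = 0.053 to 0.0846). Lrrc6, a gene of motile cilia, had log2 -3.33 ± 0.90, a call lost without any 1 of the 6 libraries (adjusted p = 0.0562 to 0.123).

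The wild-type difference, of WT CD4 SP over WT CD8 SP cells, shares no library with the mutant comparison. It held 2981 genes (18%), 1277 higher and 1704 lower in WT CD4 SP cells. Both comparisons called 429 genes, which were 47% of the 913 and 14.4% of the 2981. Of these, 167 moved in the same direction and 262 in opposite directions. Among the 563 genes higher in Thpok-RKF+ CD4+CD8+ cells, 99 were also higher in WT CD4 SP cells, 192 were lower in WT CD4 SP cells and 272 were not called between the WT groups. Among the 350 lower genes, 68 were also lower in WT CD4 SP cells, 70 were higher and 212 were not called. Which direction held more genes depended on 1 library. Without Thpok-RKF+ CD4+CD8+ replicate 1, 433 moved in the same and 341 in opposite directions, and without replicate 1 of all groups the counts were 496 and 374. A test of the difference between the mutant and the WT fold change called 2154 genes (13%).

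Genes that moved in the same direction include Zbtb7b, Cd4, Tnfrsf4, Cd200, Samhd1 and Gpr183 among the higher, and Slc6a19 and Cd8b1 among the lower. Slc6a19 had 0, 0.414 and 0.0229 CPM in WT CD4 SP, against 78.5, 69 and 68.8 CPM in WT CD8 SP libraries. Its 147, 104 and 93.4 CPM in the Thpok-RKF+ CD4+CD8+ libraries were still above each WT CD8 SP library. Gpr183 had WT values of 193, 146 and 139 CPM in CD4 SP, against 29.6, 32.5 and 32.6 CPM in CD8 SP libraries. The mitosis genes named above moved in opposite directions: Mki67, Cdk1, Ccnb2 and Cenpe had WT log2 fold changes of -2.32, -2.15, -1.96 and -2.08. The 5 largest opposite WT differences that met the level and overlap conditions were those of Ly6c1, Adgrg5, Cd160, Slc27a6 and Ly6c2. Cd160, an immunoglobulin-family receptor of cytotoxic cells, had 62.7, 81.7 and 73.9 CPM in the Thpok-RKF+ CD4+CD8+ libraries, against 8.02, 14.3 and 19.7 CPM in the Thpok-RKF- CD8 SP libraries (log2 fold change 2.38 ± 0.32, adjusted p = 0.000377). In WT cells, Cd160 had 1.21, 2.61 and 2.47 CPM in CD4 SP, against 70.5, 95.7 and 99.6 CPM in CD8 SP libraries, so the Thpok-RKF+ CD4+CD8+ libraries stood near the WT CD8 SP level. Slc27a6, a fatty acid transporter gene, had 49.7, 51.7 and 49.4 CPM in the Thpok-RKF+ CD4+CD8+ libraries, against 14.4, 19.2 and 17.6 CPM in the Thpok-RKF- CD8 SP libraries (log2 1.56 ± 0.27, adjusted p = 0.0029), and 0.274, 1.08 and 0.892 CPM in WT CD4 SP, against 14.7, 15.9 and 16.8 CPM in WT CD8 SP libraries. Both genes separated the mutant groups. Adgrg5, an adhesion G protein-coupled receptor gene, had 238, 232 and 234 CPM in the Thpok-RKF+ CD4+CD8+ libraries, against 128, 116 and 128 CPM in the Thpok-RKF- CD8 SP libraries. Its call (log2 0.92 ± 0.23) was lost without replicate 2 or 3 of Thpok-RKF+ CD4+CD8+ or any replicate of Thpok-RKF- CD8 SP (adjusted p = 0.0631 to 0.112).

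**Figure D5:**
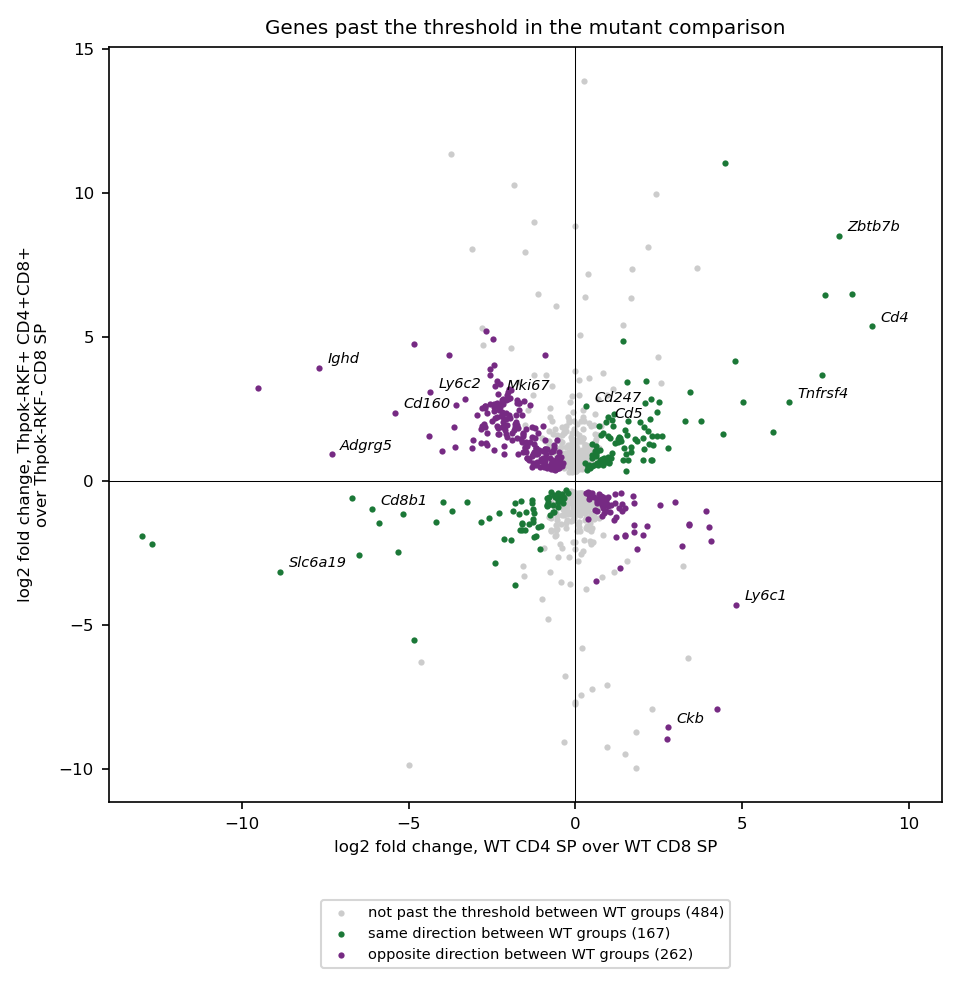
Each point is 1 of the 913 genes called between Thpok-RKF+ CD4+CD8+ and Thpok-RKF- CD8 SP cells (y axis, log2 fold change), set against its log2 fold change of WT CD4 SP over WT CD8 SP (x axis). Green marks 167 genes called in the same direction between WT groups and purple 262 called in opposite directions; without Thpok-RKF+ CD4+CD8+ replicate 1 these were 433 and 341.

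Other genes moved in the mutant comparison and hardly between the WT groups. Beside Syt10, the rises with the smallest relative WT difference were of Tnfrsf9, Arrb2, Pear1 and Eno3. Arrb2, the arrestin gene that also guides receptor signalling, had 288, 339 and 351 CPM in the Thpok-RKF+ CD4+CD8+ libraries, against 162, 116 and 167 CPM in the Thpok-RKF- CD8 SP libraries (log2 fold change 1.13 ± 0.19, adjusted p = 0.00193) and a WT log2 fold change of 0.04. Pear1, an EGF-repeat receptor gene, had 16.1, 9.85 and 10.8 CPM in the Thpok-RKF+ CD4+CD8+ libraries, against 1.95, 1.66 and 1.05 CPM in the Thpok-RKF- CD8 SP libraries (log2 2.97 ± 0.44, adjusted p = 0.00085). Eno3, a muscle enolase gene, had log2 1.26 ± 0.34, a call lost without replicate 2 or 3 of either group (adjusted p = 0.085 to 0.205). Falls of the same kind were those of Palm, Slc16a5, Rgmb and Wdr12. Wdr12, needed for the large ribosomal subunit, had 55.4, 74.3 and 74.4 CPM in the Thpok-RKF+ CD4+CD8+ libraries, against 178, 150.1 and 176 CPM in the Thpok-RKF- CD8 SP libraries (log2 -1.30 ± 0.14, adjusted p = 8.27e-05). Slc16a5, of the monocarboxylate transporter family, had 86.8, 91.8 and 115 CPM in the Thpok-RKF+ CD4+CD8+ libraries, against 272, 492 and 509.99 CPM in the Thpok-RKF- CD8 SP libraries (log2 -2.12 ± 0.27, adjusted p = 0.000255). Rgmb, a coreceptor gene for bone morphogenetic proteins, had 15.7, 13.7 and 10.7 CPM in the Thpok-RKF+ CD4+CD8+ libraries, against 49.5, 40.7 and 44.7 CPM in the Thpok-RKF- CD8 SP libraries (log2 -1.75 ± 0.17, adjusted p = 2.79e-05). None of these 5 genes with values overlapped between the mutant groups. Palm had log2 -1.14 ± 0.32, a call lost without replicate 2 or 3 of Thpok-RKF+ CD4+CD8+ or any replicate of Thpok-RKF- CD8 SP (adjusted p = 0.0764 to 0.198).

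Markers of other cells that the gates could hold were read the same way. Of 14 tested NKT and innate-like T cell genes, Cd160 rose and 0 fell (4 rose without Thpok-RKF+ CD4+CD8+ replicate 1, and 2 without Thpok-RKF- CD8 SP replicate 2), and Zbtb16, which defines NKT cells, had 0.296, 0.108 and 0 CPM in the Thpok-RKF+ CD4+CD8+ libraries, against 0.449, 1.71 and 1.03 CPM in the Thpok-RKF- CD8 SP libraries, and did not pass (log2 -2.94 ± 1.34, adjusted p = 0.271). Of 6 tested gamma-delta T cell genes, Blk fell, with 0 counts in Thpok-RKF+ CD4+CD8+ and 357 in Thpok-RKF- CD8 SP libraries, at least 119-fold lower. Its call was lost without replicate 2 or 3 of either group (adjusted p = 0.0675 to 0.0732). The list's median log2 fold change was -1.34, and 2 fell without Thpok-RKF- CD8 SP replicate 1 and 3 without replicate 1 of all groups. Trgc1, a gamma constant gene, had 0.148, 0.540 and 1.02 CPM in the Thpok-RKF+ CD4+CD8+ libraries, against 0.808, 5.21 and 5.19 CPM in the Thpok-RKF- CD8 SP libraries, overlapping (log2 -2.72 ± 0.78, adjusted p = 0.0598). Trdc, the delta constant gene, had 9.62, 13.4 and 10.3 CPM in the Thpok-RKF+ CD4+CD8+ libraries, against 10.7, 8.28 and 10.1 CPM in the Thpok-RKF- CD8 SP libraries, also overlapping, and 4 listed symbols matched no gene in the table. Of 13 immature double-positive thymocyte genes, 0 rose and 2 fell, Dntt and Themis. Dntt, the polymerase that adds bases at TCR gene joins, had 39.3, 23.3 and 27.9 CPM in the Thpok-RKF+ CD4+CD8+ libraries, against 107, 187 and 197 CPM in the Thpok-RKF- CD8 SP libraries (log2 fold change -2.44 ± 0.29, adjusted p = 0.000138), with no overlap. Rag1, also of immature cells, had 6.6, 0.259 and 0.284 CPM in the Thpok-RKF+ CD4+CD8+ libraries, against 1.8, 2.2 and 0.713 CPM in the Thpok-RKF- CD8 SP libraries, and its groups overlapped. Of 4 tested B cell genes, Ighd rose, with 4.8, 6.68 and 3.25 CPM in the Thpok-RKF+ CD4+CD8+ libraries, against 0.269, 0.0432 and 0.647 CPM in the Thpok-RKF- CD8 SP libraries (log2 3.93 ± 0.77, or 4.97 without Thpok-RKF- CD8 SP replicate 3), and it was highest in WT CD8 SP libraries at 33.4, 50.5 and 52.1 CPM. Of the 4, 3 had a log2 fold change above 0. The exception, Ighm, held most of the list's counts. Ighm had 347, 735 and 661 CPM in Thpok-RKF+ CD4+CD8+, against 713, 879 and 985 CPM in Thpok-RKF- CD8 SP libraries, which overlapped. The list summed to 362, 760 and 676 CPM against 724, 888 and 993 CPM in the same groups. Of 4 erythroid and 4 stroma genes tested, 0 passed by edgeR, at an unadjusted p below 0.05, by DESeq2 or by limma, with summed levels of 0.930, 0.0864 and 1.78 CPM in Thpok-RKF+ CD4+CD8+ and 0.584, 1.21 and 2.56 CPM in Thpok-RKF- CD8 SP libraries for the erythroid list. The sex-linked list had 1 tested gene, Xist, which did not pass (it fell without replicate 1 of all groups, log2 -0.85, adjusted p = 0.0322), and 4 Y-linked genes had 0 counts in both groups. The part of these marker levels in the differences above was not tested.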

How the data were processed

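RNA was extracted with RNeasy Plus Micro and amplified with SMARTer Ultra Low Input, and 101 bp read pairs were sequenced on a NovaSeq, per the labels' protocols. The authors deposited raw counts per gene, as 1 table and as a file per library, which were identical in all 15 libraries and were used here. The deposited CPM table held, by its values, the same counts divided by each library's gene total (100% of values over 31597 genes gave whole reads, tolerance 0.01). It was used for this check and for the limma fits, whose CPM were therefore not TMM-scaled. Per the submitters' processing notes, bcl2fastq 2.17, Trimmomatic, STAR, HTSeq, DESeq2 and mm39 were named, with roles, other versions and strand setting not given in the sources used here. In each table, 3 further columns matched no sample and were not used. The 5 summary lines of each library (reads outside genes, ambiguous between genes or matching several places, 15.93% to 21.02% of counted reads) stayed out of library sizes, which were 37311823 to 48607260 counts.

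Here, CPM and log2 fold changes came from edgeR 4.0.16 in R 4.3.3: TMM scaling, filterByExpr (minimum count 10, total 15), all 15 libraries in 1 group-means model, quasi-likelihood F tests and Benjamini-Hochberg adjustment over 16550 genes at 0.05. SEs were derived from the F statistic. All replicate pairs of the compared groups differed beyond counting noise (chi-square per degree of freedom 19.54 or more). Folds against a group with 0 counts were bounded by a floor of 3 counts over the group, and this bound and the 95% interval cover counting error only. Replicate numbers were not used to pair samples in the main model: the labels do not say what they mark, and same-numbered deviations correlated at 0.087, -0.034 and 0.063. Alternatives were RLE scaling, no filter, DESeq2 1.42.0, limma 3.58.1 on log2(deposited CPM + 1), a replicate block, other sample sets and a 2-fold minimum. Genes were named by level, size, lack of overlap, list membership (up to 4 called members a list) and WT difference. The members, lists and rules were chosen with earlier results of these data known. The code was tested on simulated data. A few genes that the naming rule chose are not reported here.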

Additional observations from a re-analysis of the deposited data

Results flagged for a closer look

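This section covers, of the genes reported, only the lineage and marker genes and those named for little or opposite WT difference. For 19 of these the fold change of Thpok-RKF+ CD4+CD8+ over Thpok-RKF- CD8 SP departed from that of WT CD4 SP over WT CD8 SP. The edgeR test of the difference between the 2 fold changes called 13% of all genes. Other named genes, such as Ckb and Dapl1, also passed it and are not listed here. Lineage and host change together between the WT groups, so they cannot be told apart in these differences. Values are the mutant minus the WT log2 fold change. The genes given below for little or opposite WT difference were named by that difference, so the choice largely set their departure.

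Among the lineage genes, Cd8a differed by 7.981 and Cd8b1 by 5.104, and the CD8 gate differed between the WT groups alone. Cd4 differed by -3.512 and Gata3 by -1.037. Runx3 differed by 3.031, with a mutant log2 fold change of 0.19 and a WT one of -2.84. Cd247 differed by 2.292 and Cd5 by 1.124.

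Of genes with little WT difference, Syt10 departed by 13.61 (a value that depends on the prior count), Pear1 by 2.856, Tnfrsf9 by 1.909 and Arrb2 by 1.094. The falls departed by -2.096 for Slc16a5, -1.788 for Rgmb and -1.264 for Wdr12. Of genes that moved in opposite directions, Ly6c1 departed by -9.124, Adgrg5 by 8.229, Cd160 by 7.772, Ly6c2 by 7.42 and Slc27a6 by 5.949.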

How the results depend on the processing

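The count of changed genes depended on the fit and on single libraries. DESeq2 called 1523 genes (850 higher, 673 lower, 281 in the WT direction), the fit of the 2 compared groups alone 496 (301, 195 and 100) and a 2-fold minimum 499 (329, 170 and 85). limma called 556 lower genes, and a term for the libraries numbered 1 gave 1355 genes, 539 lower and 261 in the WT direction. With 1 library of the compared groups left out, 492 to 1782 genes changed, 316 to 1074 were higher, 173 to 708 lower and 101 to 433 moved in the WT direction. Without replicate 1 of all 5 groups these were 2105, 1250, 855 and 496. The larger counts came without Thpok-RKF+ CD4+CD8+ replicate 1, and the cause of the other shifts was not tested. With the replicate block, 1203 genes were called, and 3 of the 6 libraries correlated best with their own number. The test of mutant against WT fold changes called 1459 to 2816 genes over all alternatives.

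Of 86 named genes that were called, 67 kept direction and call under all 14 alternatives and 0 reversed. Of those not called, Krt8 had log2 0 without Thpok-RKF+ CD4+CD8+ replicate 1 or without replicate 1 of all groups, and up to 5.849 with another library left out. Xist had -0.05616 by limma, -0.8547 (adjusted p = 0.0322, a call) without replicate 1 of all groups, and -0.771 to 0.7741 with 1 library left out.

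With 3 libraries a group, and no statement that they are separate animals, the p-values cover the spread between these libraries. Fold changes of genes with few counts rest on the prior count, and 26 called genes had 0 counts in 1 group.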
